A study of Arabidopsis thaliana with 18 samples.

Results

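A set of 41 ATH1 probe sets stood lower in Arabidopsis roots 3 days after phosphate was returned than in roots that had never been starved, while in starved roots their means ranged from somewhat below to clearly above those of never-starved roots. They were chosen by 3 limits on the group means of the log2 values in roots, out of 22810 probe sets. Replete minus mock and replete minus starved were each at or under -0.7, and starved minus mock lay between -0.5 and 0.8. Control probe sets of the manufacturer were not eligible. Of the 44 probe sets within these limits, 3 were left out by name, EXPA7, EXPA18 and AT5G51890, and a further named exception, LPR1, did not meet them. Of the members, 18 had a single gene name in the platform table, 6 of these by a symbol and 12 by a locus identifier. The other 23 had no name here and are given by their probe set identifier, which does not mean that they lack a gene.

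The samples were roots and shoots of hydroponically grown Arabidopsis thaliana, accession Col-0, hybridised to 18 Affymetrix ATH1 arrays. Every plant grew for 20 days in basal MGRL medium. Mock plants then spent 10 days in full-strength MGRL medium, starved plants spent 10 days in medium with MES in place of sodium phosphate, and replete plants followed those 10 days without phosphate with 3 days in full-strength medium. Each organ and condition had 3 arrays, which the labels call biological replicates. Sampling was thus at 30 days in mock and starved plants but at 33 days in replete plants, and the effects of age and of recovery cannot be told apart.

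Phosphate-starved roots of Arabidopsis grow more and longer root hairs, slow the elongation of the primary root and switch on phosphate uptake, and these programmes are turned down when phosphate comes back. Root cell walls are reshaped during such growth by expansins, which loosen the wall, and by glycosyl hydrolases, which cut its polymers. Glutathione S-transferases and UDP-glycosyltransferases attach glutathione or sugars to small molecules, and chitinases and pathogenesis-related proteins belong to the defence proteins that roots make. RNA came from whole organs, in which fewer cells of a type and less RNA per cell cannot be told apart.

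The choice fixed the direction of the root differences, which are therefore given as a description. Replete minus mock ranged from -1.70 to -0.71 with a median of -0.83, so that at the median the mock level was 1.78-fold the replete level. Replete minus starved ranged from -2.31 to -0.70 with a median of -1.02, a fold of 2.03. Starved minus mock lay between -0.36 and 0.78 with a median of 0.15, and was above 0 in 29 members and below 0 in 12. The members covered a wide range of levels, with root mock means from 3.77 to 11.19 on the log2 scale. In 32 of the 41, all 3 replete values lay below all 6 mock and starved values, which held for 7.08% of all probe sets. Over the whole table the median of replete minus mock was -0.01 and that of replete minus starved was -0.05.

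**Figure D1:**
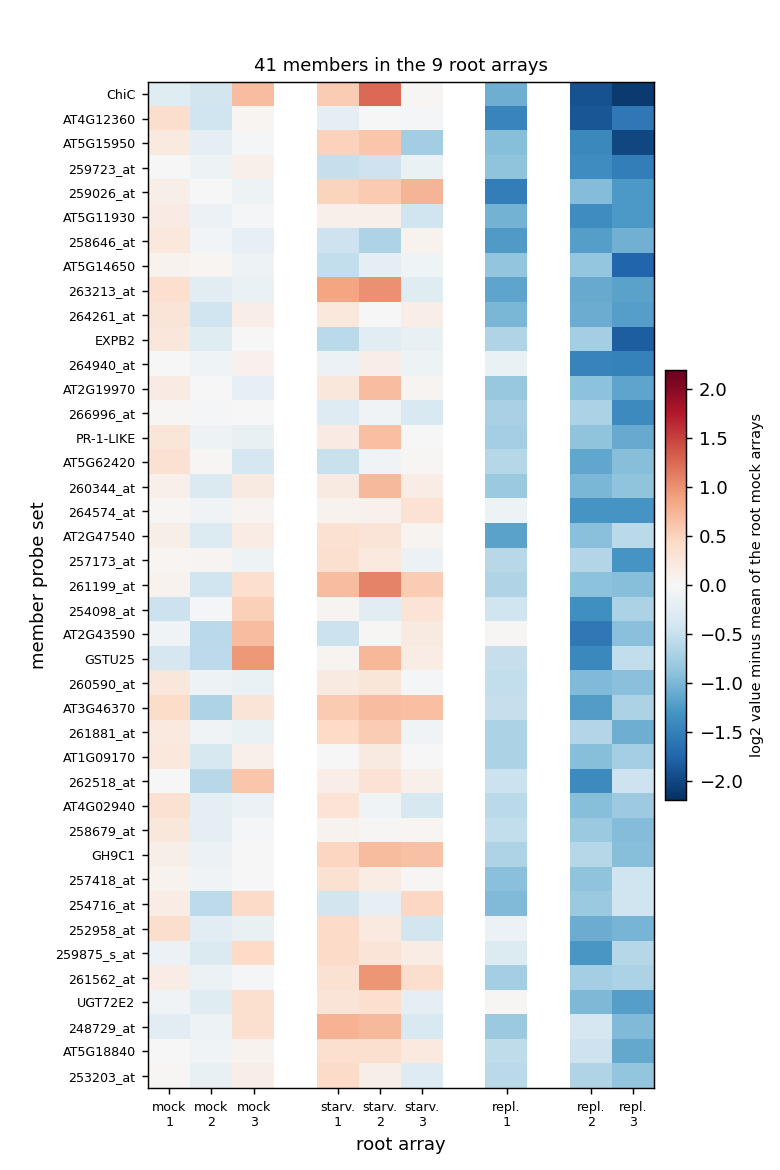
Colour shows the log2 value in each of the 9 root arrays minus the mean of the 3 root mock arrays, with 1 row per member ordered by replete minus mock. Replete array 1 is set apart from replete arrays 2 and 3, and AT2G43590 and UGT72E2 are near the mock mean there.

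**Figure D2:**
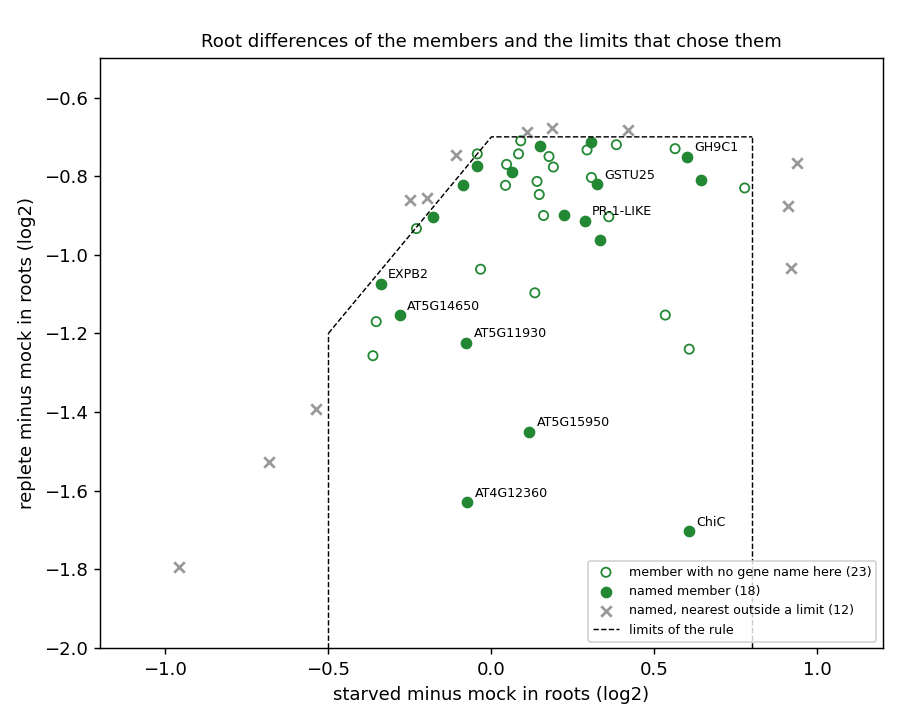
Each point is a probe set, with starved minus mock on the x axis and replete minus mock on the y axis, both as differences of root means on the log2 scale. Dashed lines mark the limits of the rule, the 18 named and 23 unnamed members lie inside, and crosses mark the 12 named probe sets nearest outside a limit.

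Replete array 1 stood apart from the other replete root arrays. It held the highest of the 3 replete values in 27 members, against 8 for array 2 and 6 for array 3. Its value exceeded the mean of arrays 2 and 3 by a median of 0.28, with a range from -0.43 to 1.3, whereas the median of that difference over all probe sets was -0.02. The gap was over 0.5 in 11 members, over 1 in 4, and within 0.2 in either direction in another 11. On array 1 alone the median of replete minus mock was -0.69 and that of replete minus starved -0.87, and 17 members met both limits of -0.7. On arrays 2 and 3 the medians were -1.0 and -1.16, and 38 members met both. Array 1 lay below the mock mean in 39 of 41 members and below the starved mean in 40, against 52.8% and 57.0% of all probe sets, but it was itself part of the replete mean that chose the members.

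The members with the widest gap had array 1 at the mock level and the other replete arrays well below it. The unnamed probe set 264940_at had mock values of 6.64, 6.56 and 6.74, starved values of 6.51, 6.80 and 6.53, and replete values of 6.50, 5.17 and 5.16. Its replete array 1 thus lay just under the lowest starved value. For 264574_at the replete values were 9.54, 8.36 and 8.35, against mock values of 9.67, 9.57 and 9.71 and starved values of 9.72, 9.74 and 9.97. AT2G43590 had replete values of 10.31, 8.72 and 9.36, mock values of 10.21, 9.69 and 10.96 and starved values of 9.81, 10.31 and 10.48, and its groups overlapped. For this gene array 1 was 1.27 above the mean of arrays 2 and 3, and for 264940_at it was 1.3 above. Membership of these probe sets rested on replete arrays 2 and 3.

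**Figure D3:**
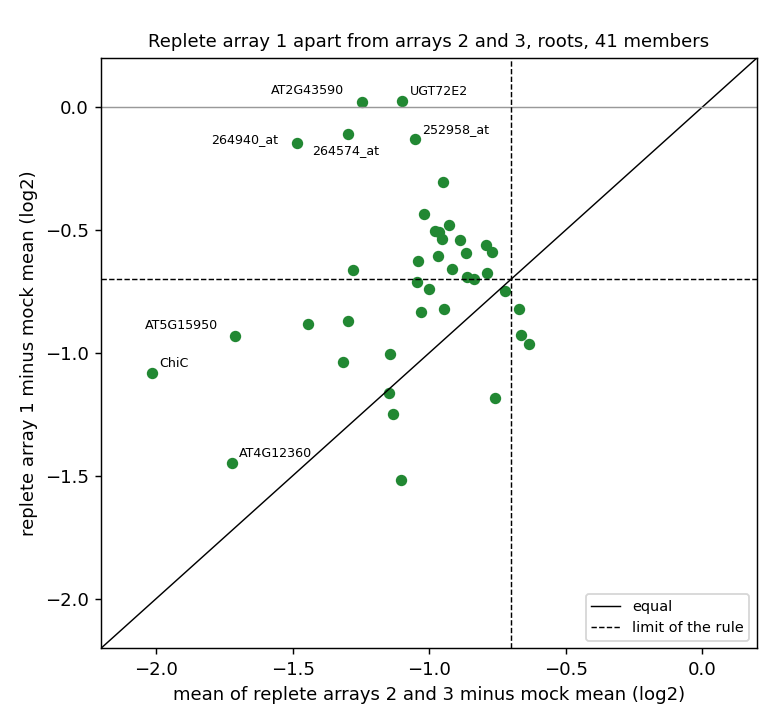
For each of the 41 members, the y axis gives replete array 1 minus the root mock mean and the x axis the mean of replete arrays 2 and 3 minus the same mock mean, in log2 units. Points above the solid line had a higher value on array 1, and dashed lines mark the limit of -0.7.

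The annotation used here gave roles for the 6 members with a symbol and none for the 12 known by locus identifier. Of the 6, a pair belongs to the defence proteins. ChiC encodes a class V chitinase, an enzyme that cuts chitin. Its root values were 5.64, 5.50 and 6.59 in mock, 6.46, 7.15 and 5.94 in starved and 4.83, 3.99 and 3.80 in replete plants. All replete values lay below every other root value, and the spread was wide within each group, with SDs of 0.59, 0.61 and 0.55 (n = 3 each). Replete minus mock was -1.70 and replete minus starved -2.31, the lowest of both among the members, and the starved level was 4.96-fold the replete level. PR-1-LIKE, a pathogenesis-related protein-1-like gene, had root values of 7.41, 7.03 and 6.98 in mock, 7.32, 7.81 and 7.15 in starved and 6.40, 6.25 and 6.03 in replete plants. Its groups of replete and other values did not overlap either, and replete minus mock was -0.91.

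Another pair of the 6 acts on cell walls. EXPB2 encodes expansin B2. Its values were 7.32, 6.81 and 7.08 in mock, 6.47, 6.82 and 6.90 in starved and 6.41, 6.33 and 5.25 in replete roots. Replete array 3 was far below the other replete arrays, and arrays 1 and 2 lay just under the lowest starved value. GH9C1 encodes glycosyl hydrolase 9C1, a member of the family of plant endoglucanases. It had values of 7.53, 7.26 and 7.39 in mock, 7.86, 8.09 and 8.03 in starved and 6.72, 6.76 and 6.45 in replete roots, so the 3 groups did not overlap and stood in the order starved, mock, replete. Its starved minus mock difference of 0.60 was near the upper limit, and its pooled SD within root groups, 0.14, was the lowest of the 41 members.

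The remaining members with a symbol attach glutathione or sugar to small molecules. GSTU25 encodes glutathione S-transferase tau 25. Its values were 4.56, 4.35 and 5.89 in mock, 5.0, 5.67 and 5.10 in starved and 4.43, 3.51 and 4.40 in replete roots, with mock array 3 high, replete array 2 low and the mock and replete groups overlapping. UGT72E2 encodes a glucosyltransferase of monolignols, the precursors of lignin. It had values of 8.98, 8.79 and 9.42 in mock, 9.34, 9.44 and 8.86 in starved and 9.09, 8.08 and 7.85 in replete roots. Its replete array 1 lay within the range of the mock values, and replete minus mock, -0.72, was near the limit.

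**Figure D4:**
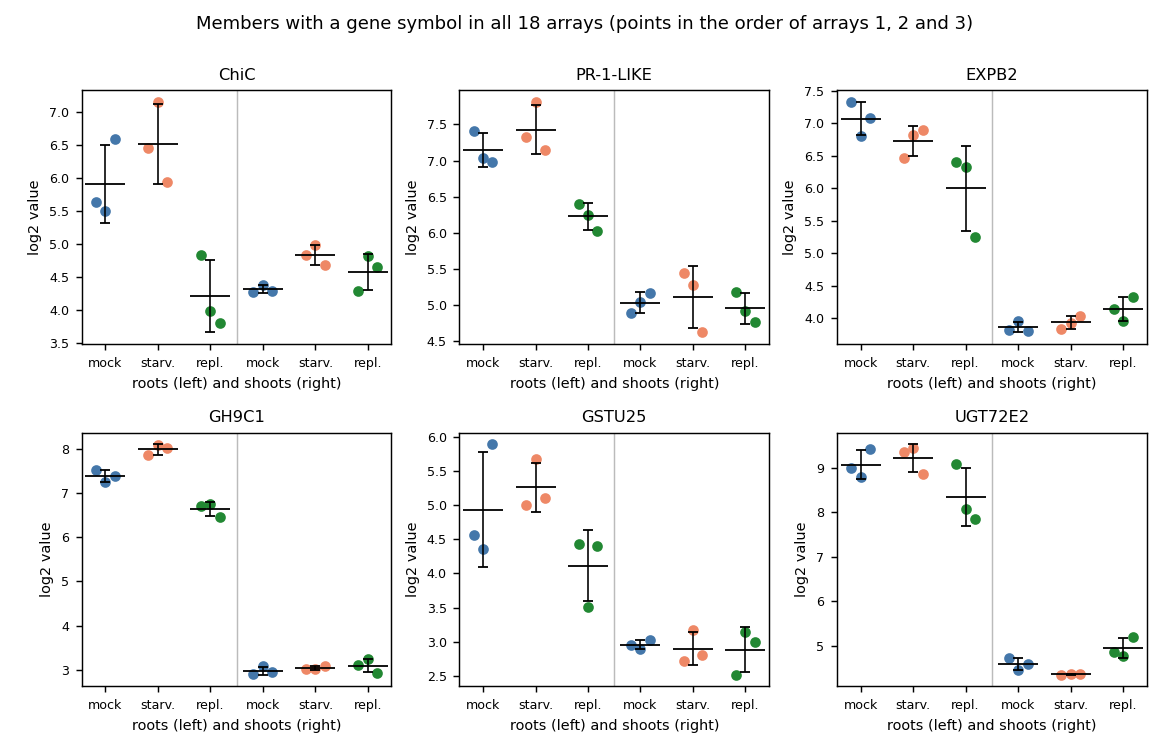
The log2 values of the 6 members with a gene symbol are shown in the 18 arrays, with the 3 arrays of a group in the order 1, 2 and 3, and bars for the mean and SD of each group. In GH9C1 the 3 root groups do not overlap, and in GSTU25 and UGT72E2 the root replete values overlap the mock values.

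The 12 members known by locus identifier held 4 of the 5 lowest named values of replete minus mock. AT4G12360 had values of 6.53, 5.70 and 6.18 in mock, 5.93, 6.15 and 6.11 in starved and 4.69, 4.26 and 4.57 in replete roots, a level more than 1 log2 unit below all the others. Its starved minus mock difference was -0.07 and its replete minus mock difference -1.63. AT5G15950 had 7.40, 6.99 and 7.15 in mock, 7.68, 7.79 and 6.42 in starved and 6.25, 5.77 and 5.17 in replete roots. Here starved array 3 was the lowest outside the replete group, and replete array 1 lay just below it. AT5G11930 had 5.56, 5.25 and 5.35 in mock, 5.49, 5.49 and 4.95 in starved and 4.35, 4.02 and 4.12 in replete roots, without overlap and with replete minus mock at -1.22. AT5G14650 had 8.48, 8.46 and 8.29 in mock, 7.86, 8.22 and 8.31 in starved and 7.54, 7.56 and 6.67 in replete roots, again without overlap, and replete array 3 was the lowest.

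The spread of replicates differed among the other loci, with a pooled SD within root groups of 0.22 in AT5G18840 and 0.41 in AT3G46370. AT2G19970 had 8.97, 8.80 and 8.61 in mock, 9.04, 9.48 and 8.86 in starved and 7.96, 7.89 and 7.64 in replete roots, and AT2G47540 had 8.28, 7.86 and 8.32, then 8.48, 8.43 and 8.22, then 6.97, 7.23 and 7.56. Neither overlapped between replete and the other groups, and in AT2G47540 array 1 was the lowest replete value. AT5G18840 had 6.11, 6.02 and 6.17 in mock, 6.45, 6.46 and 6.31 in starved and 5.54, 5.65 and 4.97 in replete roots. AT3G46370 had 6.13, 5.04 and 6.01 in mock, 6.31, 6.41 and 6.39 in starved and 5.22, 4.50 and 5.03 in replete roots, where mock array 2 lay below replete array 1. Of the other loci, AT5G62420, AT1G09170 and AT4G02940, had replete minus mock at -0.90, -0.79 and -0.77 and no overlap of replete with other values.

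Among the 23 unnamed members, 259723_at was the brightest in mock roots, with 11.19, 11.08 and 11.30 there, 10.69, 10.74 and 11.05 in starved and 10.31, 9.82 and 9.67 in replete roots. Its groups stood in the order mock, starved, replete, without overlap. The tightest replete values were those of 261562_at, at 7.96, 7.96 and 8.01, below mock values of 8.87, 8.57 and 8.68 and starved values of 9.04, 9.67 and 9.10, and its groups stood in the order starved, mock, replete. For 263213_at the replete values were 4.34, 4.39 and 4.32, below mock values of 5.88, 5.27 and 5.36 and starved values of 6.37, 6.51 and 5.23. Starved array 3 stood more than 1 log2 unit below the other starved arrays there, at the level of the mock arrays. The highest starved minus mock value of a member, 0.78, was in 261199_at, and 259026_at had the lowest replete minus starved value among the unnamed members, at -1.85.

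In 9 members the replete values overlapped other root values. They were AT2G43590, GSTU25, AT3G46370, UGT72E2 and the unnamed 254098_at, 262518_at, 254716_at, 252958_at and 259875_s_at. In 5 of them, AT2G43590, GSTU25, 262518_at, 254098_at and 259875_s_at, mock array 3 was the highest root value and replete array 2 the lowest. The unnamed 262518_at had 7.08, 6.47 and 7.69 in mock and 6.60, 5.68 and 6.63 in replete roots. Within root groups the pooled SD had a median of 0.27 over the members and 0.15 over all probe sets, and it ranged from 0.14 in GH9C1 to 0.62 in AT2G43590. In shoots the medians were 0.21 and 0.14, again higher over the members, in arrays that the rule did not use.

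The limits cut through a continuous range. The member nearest the limit on replete minus mock was 253203_at at -0.71, that nearest the limit on replete minus starved was 254716_at at -0.70, and those nearest the lower and upper limits on starved minus mock were 259723_at at -0.36 and 261199_at at 0.78. Among probe sets with a gene name, those just inside the limit on replete minus mock were AT5G18840 at -0.71, UGT72E2 at -0.72 and GH9C1 at -0.75, and just outside were AT3G57630 at -0.69, AT1G30870 at -0.68 and AT4G14020 at -0.68. On replete minus starved, AT5G62420 at -0.72, AT4G02940 at -0.73 and EXPB2 at -0.73 were inside, and AT2G34910 at -0.66, AT2G45920 at -0.64 and AT2G47880 at -0.61 outside. For starved minus mock the lower side had EXPB2 at -0.34, AT5G14650 at -0.28 and AT5G62420 at -0.18 inside, with AT1G20390 at -0.54, AT1G11920 at -0.68 and AT4G37240 at -0.96 outside. On the upper side AT3G46370 at 0.64, ChiC at 0.61 and GH9C1 at 0.60 were inside, and AT4G33550 at 0.91, AT2G19410 at 0.92 and AT3G01730 at 0.94 outside.

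The rule was also applied to 2 replicate numbers at a time. The third number then gave root values that had played no part in the choice. The sets chosen in this way differed from the members. They shared 33, 30 and 17 probe sets with the members when numbers 1, 2 and 3 were held out, respectively. With number 1 held out, 118 probe sets were chosen, and 15 of them, or 12.7%, met both limits of -0.7 on the held-out arrays, against 0.706% of all probe sets. Their held-out medians were -0.06 for replete minus mock and -0.28 for replete minus starved, against -0.03 and -0.06 for all probe sets. With number 2 held out, 14 of 49, or 28.6%, met both against 0.601%, and the medians were -0.58 and -1.19. With number 3 held out, 14 of 33, or 42.4%, met both against 1.23%, and the medians were -0.67 and -0.88. With number 1 held out, replete minus mock was below 0 in 61 of 118 chosen probe sets, or 51.7%, against 53.3% of all, so on these arrays the chosen probe sets stood no more often below mock than the rest. With number 2 held out it was below 0 in 93.9% against 48.1%, and with number 3 in 84.8% against 48.8%. Each held-out difference compares single arrays and has no replicate error. The percentages describe the chosen sets and not the members alone. Within root groups the median pooled SD was 0.27 over the members and 0.15 over all probe sets. The chosen sets were not compared with probe sets of similar spread, so the part of spread in these percentages was not tested.

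The limma fit to all arrays also covers the contrasts that chose the members, and its counts are printed beside the background as a description. In that fit 19 members were called lower in replete than in starved roots with a Benjamini-Hochberg adjusted p of 0.001 or less, against 2.78% of all probe sets, and 2 were called lower in replete than in mock roots, AT4G12360 and 259026_at, against 0.0438%. With a threshold of 0.05 the counts were 39 and 30, against 13.9% and 1.07%.

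GH9C1 was the member found in a list of root hair genes, and the other named genes of that list lay lower in replete than in starved roots too. Of 41 listed genes, 10 had a probe set named for them alone. Of these, 3 met the limits of the rule, GH9C1 and the left-out EXPA7 and EXPA18, so that their root differences were fixed by it. The other 7 were all below 0 in replete minus starved, from -1.33 to -0.60, and in replete minus mock, from -0.68 to -0.18, with medians of -0.94 and -0.45. Lower calls at the 0.001 threshold numbered 3 of these 7 in replete against starved, against 2.78% of all probe sets, and 0 of 7 in replete against mock, against 0.0438%. At 0.05 they numbered 7 of 7, against 13.9%, and 1 of 7, against 1.07%. In 3 of the 7 the replete values lay below all other root values, against 7.08%. Among the 7, the probe sets of AT4G08410, AT5G06630 and HRGP1 end in _x_at and may bind near-identical transcripts, so the 7 may not be independent. AT1G30870 had 9.08, 9.10 and 9.15 in mock, 9.43, 9.62 and 9.54 in starved and 8.18, 8.56 and 8.54 in replete roots, without overlap, and just missed the limit on replete minus mock. XTH26, a xyloglucan-modifying enzyme gene, was 1.10 higher in starved than in mock roots, and its mock and replete values overlapped. EXPA7 and EXPA18, expansins of root hairs, had replete minus mock at -0.78 and -0.76.

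The summed linear level of the 10 root hair genes ranged from 3205 to 3794 in mock and from 4498 to 5008 in starved root arrays. In replete root arrays it ranged from 2181 to 2729. The sum was thus lowest in replete roots and higher in starved than in mock roots. The members' median difference from mock to starved roots was 0.15. The rule fixed the members as lowest in replete roots and limited that difference, so the sum and the members cannot be compared at either step. GH9C1, EXPA7 and EXPA18, whose root differences the rule fixed, are part of the sum. The part of root hair genes in the members' values was not tested. In shoots the same sum lay between 99.3 and 128. The 5 green tissue markers, which stand for shoot RNA in roots, summed to between 147 and 221 in mock, 121 and 164 in starved and 231 and 300 in replete root arrays, against 18235 to 21872 in shoots. The brightest of them, LHCB4.1 and RCA, stood at 0.92 and 0.22 in replete minus mock and at 1.23 and 0.46 in replete minus starved. PRK, SBPASE and FMA lay below 0 in both, and the medians of the list were -0.08 and -0.30. Root mock means of PRK, SBPASE and FMA were 3.03, 3.2 and 2.70, near the low end of the scale. Their signs and the list medians therefore say little about shoot RNA. The higher sum in replete roots thus came from LHCB4.1 and RCA, and the part of shoot RNA in the members' values was not tested. The 7 reference genes had sums of 2369 to 2433 in mock and 2372 to 2442 in replete roots.

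No other list held a member. Of 42 genes of xylem and secondary walls 3 were named, and of these IRX15-L, a gene of xylan synthesis, stood at -0.70 in replete minus starved and -0.32 in replete minus mock, while GUT2 stood at 0.08 and -0.04 and IRX15 at -0.02 and -0.03. The endodermis and suberin list had 2 named genes of 24, the stele and phloem list 1 of 12 and the lignin monomer list 1 of 14, none of them called lower in replete against starved or mock roots. Lists for root cap and meristem, nitrate and ammonium transport, and aquaporins had no named gene. Of the 5 phosphate transport and sensing genes with a named probe set, 2 were called lower in replete than in starved roots, LPR1 and AT1G13750, and none in replete against mock. The 6 metal and sulfate nutrition genes had a median replete minus mock of -0.80, but their starved minus mock median of -1.36 lay outside the limits. PDC2 encodes pyruvate decarboxylase, an enzyme of fermentation. It was the low-oxygen gene with a named probe set and had replete minus mock at 0.64 in roots.

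Gene families of the members did not share their pattern as a whole. The families were picked after the members were known, and only probe sets with a single gene name were counted. Of 18 expansin probe sets, 3 met both limits of -0.7, EXPB2, EXPA7 and EXPA18, and the family median of replete minus mock was -0.13. Of 11 tau-class glutathione S-transferases 2 did, GSTU25 and GSTU20, the latter with starved minus mock at 1.04, and the median was -0.08. GSTU26, which follows GSTU25 along the chromosome, stood at 0.37. Among 15 glycosyl hydrolase 9 genes and 47 UDP-glycosyltransferase genes, GH9C1 and UGT72E2 were the 1 member each, with family medians of -0.12 and -0.08.

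Only probe sets with a single gene name could be placed on the chromosome, so unnamed members were not seen as neighbours. Genes within 2 places were measured for all 18 named members, with 33 neighbouring values from probe sets that were no members. Their median replete minus mock was -0.11, 21 of the 33 were below 0, and 1 was at or under -0.7. That one was AT2G47550, next to AT2G47540, with replete minus mock at -0.97 and starved minus mock at -1.47. Among the named members, PR-1-LIKE and AT2G19970 were the pair within 2 places of each other. The gene between them, AT2G19980, had replete minus mock at -0.15 and replete minus starved at -0.14.

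The difference between organs sets the mean of the 3 root groups against that of the 3 shoot groups. It is given as a description of the members, since its root means use the arrays that chose them, and a transcript must stand above the lowest root levels to lie 0.7 below other root groups. The median root level of the members in mock plants was 7.14, against 5.95 over all probe sets, and their median shoot level, which the rule did not use, was 5.03, against 5.95. In the fit across all probe sets, 27 of 41 members were called higher in roots (adjusted p at or below 0.001), or 65.9%, against 36.2% of all probe sets, and 10 were called lower, or 24.4%, against 23.6%. The median difference was 1.86 in the members and 0.06 over all probe sets. Centring on reference genes moved the background split to 27.8% higher and 33.3% lower, with 27 members higher and 11 lower. The member 261562_at had the largest difference, at 6.26 (SE 0.08, adjusted p 2.2e-20), with shoot values from 2.25 to 2.60. AT5G14650 followed at 5.16 (SE 0.13), AT2G47540 at 4.83 (SE 0.10), GH9C1 at 4.31 (SE 0.06) and UGT72E2 at 4.24 (SE 0.14). GH9C1, for example, had shoot values of 2.91, 3.08 and 2.94 in mock, 3.01, 3.01 and 3.08 in starved and 3.11, 3.23 and 2.93 in replete plants, all more than 3 log2 units below every root value.

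Members of the opposite kind were brighter in shoots. The unnamed 264261_at stood at -3.07 (SE 0.12) in roots minus shoots and 254716_at at -2.93 (SE 0.13). AT3G46370 stood at -1.43 (SE 0.13), AT5G11930 at -1.22 (SE 0.12) and AT5G15950 at -0.99 (SE 0.23), a call that was lost under 16 of the alternative settings. AT4G02940, at 0.17 (SE 0.09, adjusted p 0.098), and the unnamed 264574_at, 259875_s_at and 254098_at were called in neither direction.

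**Figure D5:**
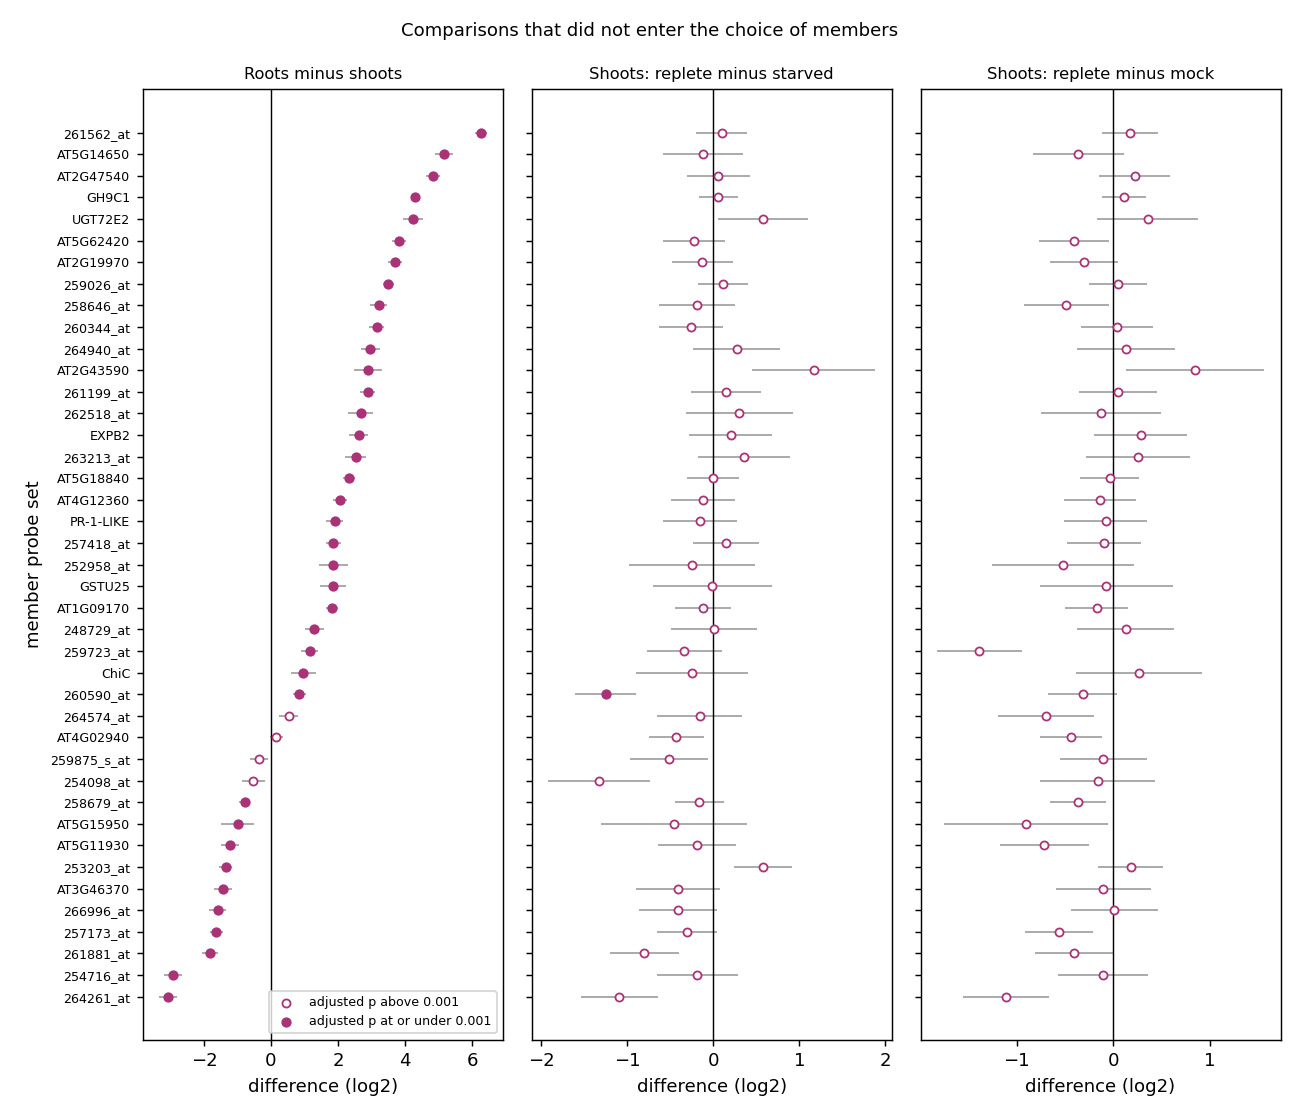
Points give the fitted differences of the 41 members on the log2 scale with 95% confidence intervals, for roots minus shoots, for shoots replete minus starved and for shoots replete minus mock. Filled points passed the threshold of 0.001 on the adjusted p, which held for 37 members in the organ comparison and for 260590_at in shoots.

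The shoot comparisons ask whether members moved in the organ that had not been used to choose them. At the 0.001 threshold on the adjusted p, 1 member fell from starved to replete shoots, against 0.601% of all probe sets, and 0 rose, against 0.105%, in the limma fit. At an unadjusted p under 0.05, 6 members or 14.6% were lower, against 12.2% of all probe sets, and 3 or 7.32% were higher, against 11.4%. The median of the members was -0.16 and that of all probe sets 0.00. For replete against mock shoots, 0 members were called lower, against 0.00877%, and 0 higher, against 0.0132%, in limma. At an unadjusted p under 0.05, 11 members or 26.8% were lower in replete than in mock shoots, against 10.6%, and 1 or 2.44% was higher, against 8.15%, so that lower values were more frequent among the members than in the whole table although none passed the adjusted threshold. For starved against mock shoots, 0 were called higher, against 0.386%, and 0 lower, against 0.0132%. The unadjusted counts were 2 higher, against 7.24%, and 4 lower, against 10%. The medians of these comparisons were -0.10 and -0.06.

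The member called in shoots was 260590_at. Its shoot values were 9.64, 9.23 and 9.29 in mock, 10.45, 10.54 and 9.97 in starved and 9.18, 8.89 and 9.14 in replete plants. Starved minus mock was 0.93 there (adjusted p 0.0053). From starved to replete shoots it fell by 1.25 (SE 0.17, adjusted p 0.000315), to just below the mock values. In its roots the group means stood in the same order, but starved minus mock was 0.14. The count of members called was 0 when any of shoot starved arrays 1 and 2 or shoot replete arrays 1, 2 and 3 was left out. The unnamed 254098_at had a like order, with shoot values of 10.17, 11.11 and 11.29 in mock, 12.05, 12.14 and 11.87 in starved and 10.67, 10.66 and 10.75 in replete plants, and replete minus starved at -1.33 (SE 0.28, adjusted p 0.00829) did not pass.

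The limits of the rule, applied to shoot means, were met by 264261_at alone among the members, or 2.44%, against 37 probe sets or 0.162% of the table. Its shoot values were 7.78, 7.96 and 8.10 in mock, 8.20, 8.16 and 7.43 in starved and 6.97, 7.10 and 6.44 in replete plants, and all replete values lay below the others. Replete minus mock was -1.11 (SE 0.21, adjusted p 0.0157) and replete minus starved -1.09 (adjusted p 0.00467), neither past the threshold. Its root values were 5.11, 4.39 and 4.97 in mock, 5.06, 4.84 and 4.97 in starved and 3.82, 3.74 and 3.62 in replete plants.

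Shoots of starved plants were also low for 259723_at, with 10.43, 10.12 and 10.37 in mock, 9.46, 9.20 and 9.11 in starved and 9.44, 8.90 and 8.42 in replete plants. Its replete minus mock value in shoots was -1.39 (SE 0.21, adjusted p 0.00646) and its starved minus mock value -1.05 (adjusted p 0.00977), so the starved and replete shoots both stood below the mock shoots without overlap, though neither difference passed. AT5G11930, with shoot replete minus mock at -0.71 (SE 0.22, adjusted p 0.0864), had 6.95, 6.19 and 6.63 in mock against 6.19, 5.75 and 5.69 in replete shoots.

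AT2G43590 went the other way in shoots. Its values were 6.88, 6.79 and 7.07 in mock, 6.34, 6.74 and 6.68 in starved and 7.46, 7.66 and 8.15 in replete shoots, so all replete values lay above the rest, while in roots its replete mean was below the others with overlap. Replete minus starved was 1.17 in shoots (95% confidence interval from 0.46 to 1.88, adjusted p 0.0410), which did not pass the threshold of 0.001. UGT72E2 stood at 0.58 in the same comparison (interval from 0.06 to 1.10, adjusted p 0.162), with 4.36, 4.37 and 4.37 in starved and 4.87, 4.77 and 5.20 in replete shoots. In 4 members the replete shoot values lay above all starved shoot values, against 13.3% of all probe sets, and in 8 they lay below, against 13.8%. ChiC, the member with the lowest root difference, stood at -0.25 in shoots (interval from -0.90 to 0.40, adjusted p 0.683).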

How the data were processed

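Messenger RNA of 18 samples was measured on ATH1 arrays, and group labels came from the sample descriptions. The authors deposited log2 values, made, per the labels and the paper's methods section, with affy in R, whose version is not given in the sources used here. Backgrounds were corrected, arrays were quantile normalized and the probes of a set were summarised by median polish. Array medians lay between 5.88 and 5.98. Quantile normalization gives all arrays nearly 1 distribution, so a shift shared by most transcripts would not show. Scanner files were not used here, so whether a transcript was detected is not known. Precision is limited by the number of arrays. No filter on low values was applied.

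Probe sets were named through the platform table, which gave 1 gene for 13513, several for 503 and none for 8794, and 13436 matched RefSeq (TAIR10.1), used for names and gene order. Probe sets ending in _s_at or _x_at may bind near-identical transcripts.

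With limma 3.58.1 (lmFit, then eBayes; R 4.3.3), 6 group means were fitted to the 18 arrays, leaving 12 residual degrees of freedom, or 16.5 once moderated. Two-sided p-values were Benjamini-Hochberg adjusted over 22810 probe sets within each contrast, with a threshold of 0.001. In simulated data 69 of 100 shoot changes of size 1 and 91 of 100 of size 2 were called, with 1 false call. The simulated errors were normal, independent between arrays and of 1 SD per probe set, so the rates describe that setting only. The changed probe sets were drawn at random from the table. The median SD within shoot groups was 0.21 over the members and 0.14 over all, so these rates may not hold for members. The members, lists and comparisons were chosen with earlier results of these data known. Named members are the 15 lowest in replete minus mock, those in a list, those ranking high in a shoot contrast and those nearest a limit; others were named after their values were seen. Alternatives covered the limits, the scaling, the filter, the multiple-test adjustment, array weights, a replicate block and each array left out.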

Additional observations from a re-analysis of the deposited data

Results flagged for a closer look

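In 2 members every replete shoot array was above every starved shoot array while every replete root array was below every starved root array. The share of all probe sets with both was not counted, and 13.3% had the shoot part. For 253203_at the shoot difference was 0.58, with 8.87, 8.57 and 8.78 in replete and 8.22, 8.28 and 7.99 in starved shoots, against 6.76, 6.68 and 6.48 in replete and 7.77, 7.48 and 7.07 in starved roots. For 263213_at it was 0.35, with 2.99, 3.01 and 2.92 in replete and 2.91, 2.27 and 2.68 in starved shoots. The choice of members fixed the root direction, and the difference between the organs was not tested.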

How the results depend on the processing

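Without root replete array 1, 107 probe sets met the limits of the rule, 38 of them among the 41. Leaving out each other root array gave 34 to 57, with the fewest shared, 28, without mock array 3 or replete array 3. Group medians in place of means gave 63, of which 24 were shared, limits of -0.6, -0.8 and -1 gave 72, 23 and 8, and starved minus mock between -0.3 and 0.3 gave 25. Centring on 9 spike-in probe sets gave 61 with 29 shared, and the 7 reference genes gave 33. The spike-ins themselves stood at 0.12 in root replete minus mock and at -0.14 in replete minus starved, and centring subtracts these differences.

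The count of 1 for replete against starved shoots became 2 with a replicate block, 0 with Bonferroni adjustment, 6 at an adjusted p at or under 0.05, 0 with only the 9 shoot arrays and 0 to 2 with an array left out. It was 0 without any one of shoot starved arrays 1 and 2 or shoot replete arrays 1, 2 and 3, and 2 without shoot starved array 3. The 6 at 0.05 were 4 lower, against 4.72% of all probe sets, and 2 higher, against 3.97%. For replete against mock shoots, 0 became 2 at 0.05 and 1 with array weights. The 2 at 0.05 were lower, against 1.53% of all probe sets, and 0 were higher, against 1.23%. For starved against mock shoots, 0 became 1 with a replicate block, 3 at 0.05, 2 with array weights and 0 to 1 with an array left out, being 1 without shoot starved array 3. The 3 at 0.05 were 1 lower, against 2.01% of all probe sets, and 2 higher, against 1.86%. The 37 organ calls became 36 to 38 with an array left out, and 95 of 107 when members were chosen without root replete array 1. In the main fit 36.2% of all probe sets were called higher in roots and 23.6% lower. AT4G02940 turned from 0.17 to -0.0205 in roots minus shoots after centring on reference genes, which lowered all such differences by 0.19. The call of AT5G15950 was lost under 16 alternatives and that of ChiC with Bonferroni adjustment. The root calls of replete against starved belong to a contrast that chose the members and are given as a description. Their count of 19 became 2 with Bonferroni adjustment, 39 at 0.05, 31 with array weights and 9 to 20 with an array left out. It was 9 without root starved array 1 or 2, 11 without root replete array 2 and 10 without root replete array 3.

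Of 45 same-numbered pairs of arrays, 20 had deviations correlated over 0.1, with a range from -0.11 to 0.45. Every pair was over 0.1 for shoot mock and replete arrays (0.18, 0.15 and 0.30), where the replicate block left the count at 0, and for 14 of 15 pairs of groups at least 1 was not, so the numbers were not taken to pair the arrays. With 3 arrays per group, shoot changes may have been missed.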
